A study of Mus musculus with 6 samples.

Results

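The common gamma chain cytokine system was examined through 10 of the 18046 genes listed for mouse helper T cells: the ligand genes Il2 and Il21 and the receptor genes Il2rg, Il2ra, Il2rb, Il15ra, Il4ra, Il7r, Il9r and Il21r. They were chosen by gene symbol, and each symbol was found once. Naive CD4+ T cells from the spleen of C57BL/6 mice, given as 3 weeks old, were stimulated through CD3 and CD28 for 3 days in Th1 culture, which steers them towards T helper 1 (Th1) cells. The cells received vehicle (3 libraries) or 20 µM LPC (3 libraries), an agent whose abbreviation the labels do not spell out, and the labels do not name the vehicle. Both groups therefore share the antibody stimulation and the Th1 conditions, and there were no unstimulated cells. Whether replicates stand for different animals, cultures or only repeat preparations is not stated. Every p-value here therefore sets a group difference only against the spread among these samples, and that spread may be technical.

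The common gamma chain, encoded by Il2rg, is shared by the receptors for the interleukins IL-2, IL-4, IL-7, IL-9, IL-15 and IL-21. Most of those receptors pair it with a private chain that decides which cytokine is bound. The receptors for IL-2 and IL-15 share the Il2rb chain and differ in the Il2ra or Il15ra chain. Signals pass through the kinases JAK1 and JAK3 to STAT transcription factors. In T cells, activation turns on the gene for the high-affinity IL-2 receptor chain (Il2ra) and IL-2 itself, which drives division, while the IL-7 receptor keeps resting cells alive and is turned down in activated ones.

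Expression was given as FPKM, a fragment count scaled for gene length and for the size of the library, so that levels can be compared between genes. FPKM sums were 556561 to 641026 per library. LPC replicate 3 stood apart with the highest sum (641026, against at most 588274 elsewhere) and the lowest share of genes listed at 0 (17.9%, against 19.4% to 20.2%). No sequencing depth was given; the spacing of low values came nearest to whole reads at 19.00 to 19.50 M reads per library, with a mean distance of 0.18 to 0.185 of a read, which makes it a rough estimate. All 12 CD4 T cell markers were tested and 0 passed (limma, with 1 at an unadjusted p under 0.05). The groups did not overlap for 2 of them, Cd4 (lower with LPC) and Cd5 (higher), beside 34.5% of all tested genes. Cd5 was listed at 282.75, 271.72 and 262.21 FPKM with vehicle and at 299.99, 295.69 and 291.59 with LPC. Its log2 change was 0.12 (limma adjusted p = 0.376), and the median log2 change of the 12 markers was 0.02. Cd4 itself was listed at 185.33, 205.20 and 199.32 FPKM with vehicle and at 177.07, 169.87 and 143.89 with LPC, every LPC library below every vehicle library (log2 change -0.27, 95% interval -0.48 to -0.06, limma adjusted p = 0.0875). All 8 B cell markers stayed under 1 FPKM in every library, with a summed level of 1.14 to 1.33 with vehicle and 0.65 to 1.03 with LPC. Of 13 listed myeloid markers 11 stayed under 1 FPKM; the sum was 64.2 to 69.6 with vehicle and 63.8 to 87.0 with LPC and came mostly from Cst3, which many cell types express and which had 82.96 FPKM in LPC replicate 3. Of 7 NK cell markers 5 stayed under 1 FPKM and Ncr1 and Klra8 were at 0 in every library; Klrk1 rose (log2 change 0.52, limma adjusted p = 0.00657) and Eomes, also a T cell factor, fell (-0.49, 0.0146), and the sum was 7.63 to 10.2 with vehicle and 7.47 to 8.0 with LPC. Of the 2 CD8 T cell markers Cd8a had 0.18 to 0.33 FPKM, while Cd8b1 had 13.79, 13.35 and 14.19 FPKM with vehicle and 12.55, 12.05 and 10.57 with LPC, again without overlap (log2 change -0.22, limma adjusted p = 0.142). The part of these levels in the results was not tested. In RNA from a whole culture, fewer cells of a type and less RNA per cell cannot be told apart.

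With vehicle, Il2ra had the highest level of the 10 genes, at 450 ± 43.2 FPKM (SD, n = 3). Its product raises the affinity for IL-2 and does not signal. Il2rg followed at 386 ± 31.9 FPKM, and the ranges of these 2 genes overlapped between libraries. Il2rb, the signalling chain for IL-2 and IL-15, was next at 289 ± 12.4 FPKM. Il21r, the private chain for IL-21, had 245 ± 13.7 FPKM. Over all libraries these 4 genes ranked 154, 177, 251 and 305 by mean FPKM among the 18046 listed genes. A second tier held Il4ra, the chain for IL-4, at 78.6 ± 4.93 FPKM and Il21 at 42.6 ± 3.92 FPKM. Il7r (25.8 ± 2.0), Il15ra (24.8 ± 1.27) and Il2 (24.6 ± 3.8) had vehicle levels whose ranges overlapped with their neighbours in this order. Il9r, the chain for IL-9, was lowest at 0.683 ± 0.0321 FPKM. With LPC the first 6 places were the same, and Il2 (37.6 ± 11.4 FPKM) then stood above Il7r (19.1 ± 2.24) and Il15ra (17.8 ± 1.69) with no overlap of ranges. Its range overlapped with that of Il21 (49.9 ± 5.68). The plot of levels by library shows these tiers.

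**Figure D1:**
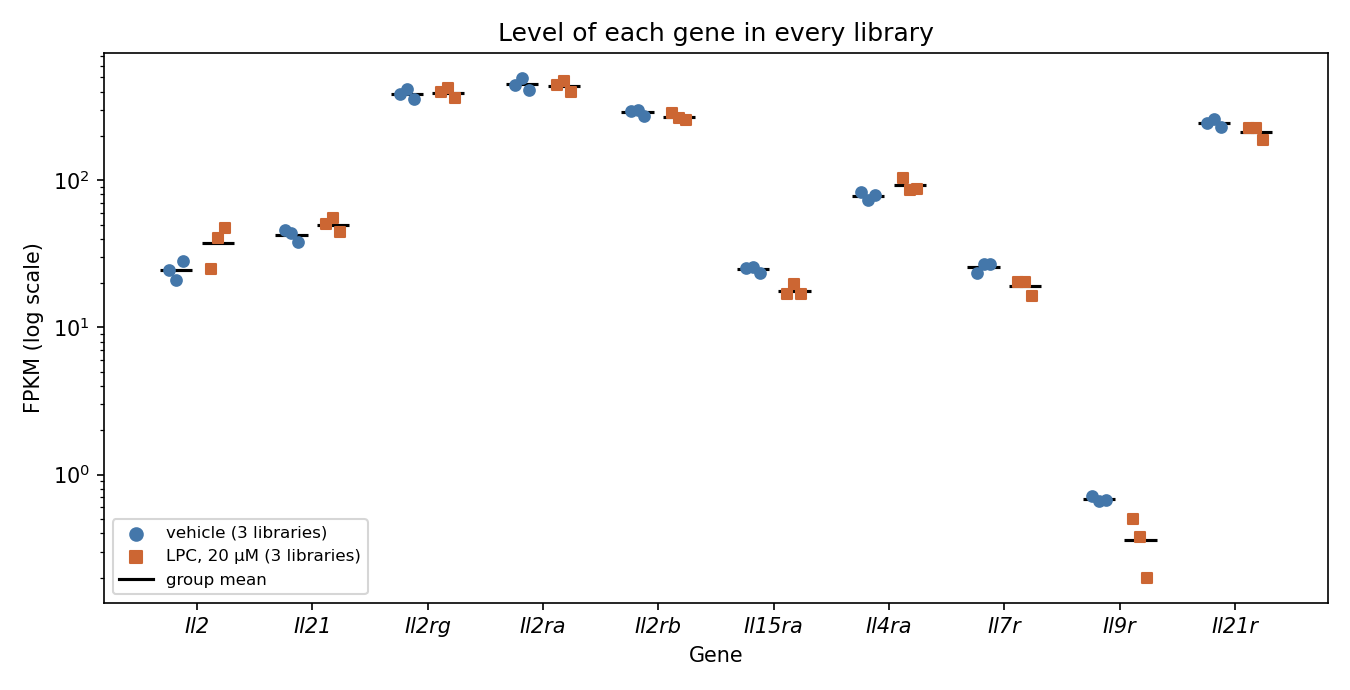
FPKM (log scale) of the 10 genes in each of 3 vehicle libraries (circles) and 3 LPC libraries (squares), with the group mean as a black line. Il2ra, Il2rg, Il2rb and Il21r sit between 188.57 and 494.76 FPKM in every library, and Il9r stays under 1.

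Of the 10 genes 9 had an FPKM of 1 or more in at least 3 libraries and were tested; Il9r was not. With LPC, Il15ra and Il7r fell and none of the 9 rose (limma, adjusted p under 0.05 over 10138 genes; 2 had a positive change at an unadjusted p under 0.05). A fall was called for 7.91% of all tested genes, a rise for 5.82%, and either for 13.7%, and the count of 2 among 9 is too small to set the members apart from that background. The median log2 change of the 9 genes was -0.04, the same as that of all tested genes (-0.04); the median size without regard to sign was 0.22, against 0.15. Each log2 change is LPC minus vehicle on the log2(FPKM + 1) scale, on which low genes show less than their full change. The libraries of the groups did not overlap for 4 of the 9 genes (Il15ra, Il7r, Il21r and Il4ra), as for 34.5% of all tested genes: 3 were lower with LPC (20.7% of all tested genes) and 1 higher (13.7%).

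**Figure D2:**
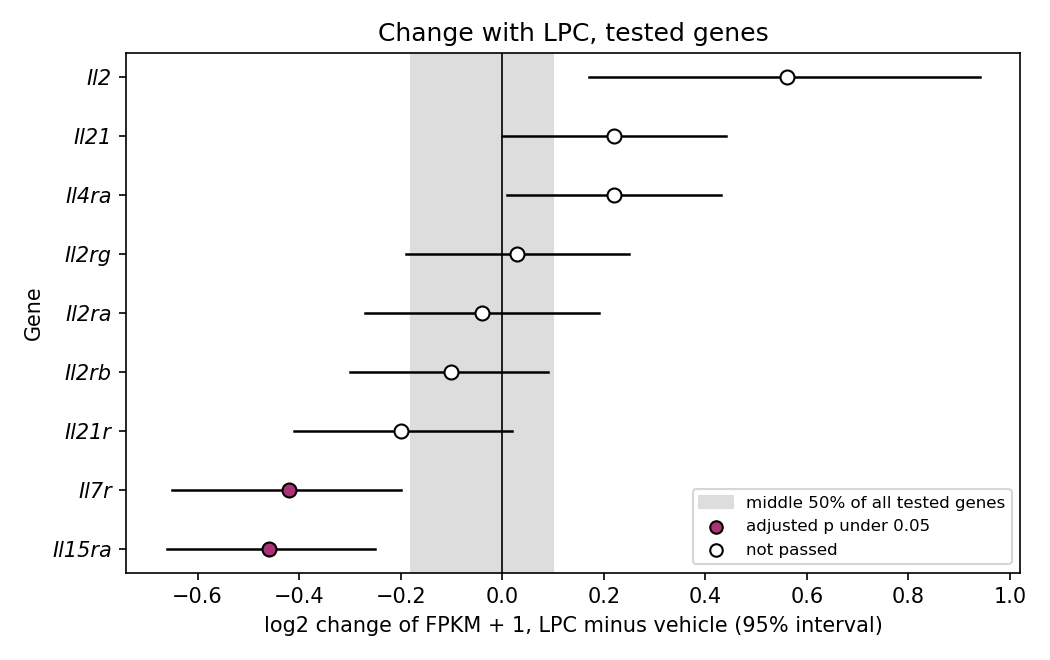
Log2 change of FPKM + 1 (LPC minus vehicle) of the 9 tested genes with 95% intervals; filled points passed at an adjusted p under 0.05 and the grey band holds the middle 50% of all tested genes (-0.18 to 0.10). Il15ra (-0.46) and Il7r (-0.42) lie to the left with intervals clear of 0, and Il2 (0.56) lies farthest to the right with the widest interval.

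The sequences just upstream of the start sites are shown for the 2 genes that fell and for the ligand gene with the largest change, since the comparison turns on them. They come from the 250 bases before a RefSeq start site (GRCm38.p6), 5′ to 3′ on the gene's strand, without bases that lie inside the annotated gene because another transcript starts earlier. The Il15ra stretch is chr2:11705043-11705171 on the plus strand, the Il7r stretch chr15:9529942-9530126 on the minus strand and the Il2 stretch chr3:37125955-37126204 on the minus strand. Capitals mark matches, on either strand, to GGAAA (the core of sites of the activation factor NFAT) or TTCNNNGAA (STAT); TGANTCA (AP-1) was also searched, and no matches overlap in these stretches.
Il15ra: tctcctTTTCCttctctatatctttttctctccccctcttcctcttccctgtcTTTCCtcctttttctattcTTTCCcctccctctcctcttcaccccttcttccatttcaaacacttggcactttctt
Il7r: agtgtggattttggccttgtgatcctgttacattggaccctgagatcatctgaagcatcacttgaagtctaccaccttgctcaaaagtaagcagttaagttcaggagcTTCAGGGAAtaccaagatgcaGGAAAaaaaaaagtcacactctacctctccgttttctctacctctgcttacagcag
Il2: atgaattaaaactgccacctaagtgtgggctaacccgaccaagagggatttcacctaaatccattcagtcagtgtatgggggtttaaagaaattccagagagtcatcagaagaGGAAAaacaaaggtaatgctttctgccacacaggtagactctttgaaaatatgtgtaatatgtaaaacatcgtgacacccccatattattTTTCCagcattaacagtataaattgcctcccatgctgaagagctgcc
GGAAA was found in 7 of the 10 windows of the 9 genes with an entry (Il2rb had none), TGANTCA in 1 and TTCNNNGAA in 1. Among 32851 windows of all genes, 55.6% held GGAAA, 6.75% TGANTCA and 7.02% TTCNNNGAA. Il15ra has 2 windows, for 2 start sites; the first held 4 GGAAA matches, of which 3 are printed, and the second held the single TGANTCA match. The TTCNNNGAA match lay in the Il7r window at position -142 from the start site of that window, with a GGAAA match at -121. The 65 bases nearest that start site lie inside the annotated gene and are not printed. A match describes letters only.

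Among the ligands, Il2 was listed at 24.53, 20.85 and 28.44 FPKM with vehicle and at 25, 40.68 and 47.09 with LPC. LPC replicates 2 and 3 lay above every vehicle library, and LPC replicate 1 lay within the vehicle range. The mean was 1.53 times as high with LPC, and the log2 change of 0.56 (SE 0.18, 95% interval 0.17 to 0.94) did not pass (limma adjusted p = 0.0543). It passed without LPC replicate 1 (0.82, adjusted p = 0.00978), without vehicle replicate 3 (0.66, 0.0264) and after trends with GC share and transcript length were removed (0.62, 0.0318); without LPC replicate 3 it was 0.37 (0.147). With no filter on low values its adjusted p was 0.226. The SE was the largest of the 9 tested members, against a median of 0.10 over all tested genes. Il2 lies on chromosome 3 at 37120713 to 37125954 of GRCm38.

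Il21, whose product acts on B cells and on T cells themselves, lies 96.8 kb from Il2 at 37222759 to 37232636, with no other listed gene between them. It was listed at 46.04, 43.51 and 38.34 FPKM with vehicle and 50.19, 55.50 and 44.15 with LPC. LPC replicate 3, the highest library for Il2, was the lowest LPC library for Il21 and overlapped with the vehicle range. The log2 change of 0.22 (SE 0.10) did not pass (limma adjusted p = 0.167). The ratio of Il2 to Il21 in a library was 0.53, 0.48 and 0.74 with vehicle and 0.50, 0.73 and 1.07 with LPC. These ranges overlapped (log2 difference 0.35, exact two-sided permutation p = 0.5; with 3 against 3 the smallest possible p is 0.1). That difference was 0.07 without LPC replicate 3 and 0.62 without LPC replicate 1. The genes on the outer sides were Adad1, listed at 0.04 and 0.03 FPKM, and Cetn4, with a log2 change of -0.08 (adjusted p = 0.578).

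The shared chain gene Il2rg, on chromosome X at 101264385 to 101268255, was listed at 385.70, 418.54 and 354.68 FPKM with vehicle and 397.97, 423.49 and 360.18 with LPC. The groups covered nearly the same range. The log2 change was 0.03 (95% interval -0.19 to 0.25, limma adjusted p = 0.884), with -0.02 under quantile normalization, and the interval leaves room for a change of up to 0.25. Il2rb, on chromosome 15 at 78479256 to 78511621, was listed at 295.21, 297.67 and 275.06 FPKM with vehicle and at 287.83, 263.70 and 256.84 with LPC. Its ranges overlapped through LPC replicate 1, and the log2 change of -0.10 (interval -0.30 to 0.09) did not pass (adjusted p = 0.473).

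Il2ra, whose product is the activation marker CD25, was listed at 446.42, 494.76 and 408.47 FPKM with vehicle and 443.13, 471.22 and 397.94 with LPC. In both groups replicate 2 was the highest library and replicate 3 the lowest, as for Il2rg. The log2 change was -0.04 (95% interval -0.27 to 0.19, limma adjusted p = 0.838), and 0.01 with median centring and 0.07 after GC and length trends were removed. The ratio of Il2ra to Il2rb was 1.55 ± 0.0954 with vehicle and 1.63 ± 0.14 with LPC (n = 3 each, exact two-sided permutation p = 0.5), and its log2 difference of 0.06 became -0.01 without LPC replicate 2.

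Il15ra lies 12 kb beyond Il2ra on chromosome 2, at 11705172 to 11733985 against 11642792 to 11693194. Its product holds IL-15 with high affinity and can present it to neighbouring cells. Il15ra was listed at 25.15, 25.79 and 23.35 FPKM with vehicle and at 16.75, 19.74 and 16.88 with LPC. Every LPC library was below every vehicle library. It fell by 28.2% in mean FPKM (log2 change -0.46, SE 0.09, 95% interval -0.66 to -0.25, limma adjusted p = 0.00818). The call held in each of the 13 alternatives, with log2 changes of -0.53 to -0.41 and adjusted p of at most 0.0479; without LPC replicate 3 it was -0.42 (0.0126). Within a library, Il2ra exceeded Il15ra by 17.75, 19.18 and 17.49 times with vehicle and by 26.46, 23.87 and 23.57 times with LPC, without overlap (log2 difference 0.44, exact two-sided permutation p = 0.1, the smallest possible). That ratio was chosen after the values were seen. It largely repeats the fall of Il15ra, since Il2ra had a log2 change of -0.04, and is not separate support. Fbxo18, the gene on the other side of Il15ra, had a log2 change of -0.19 (adjusted p = 0.201). Il15, the ligand gene, lay under the filter, at 0.65, 0.45 and 0.39 FPKM with vehicle and 0.16, 0.34 and 0.25 with LPC.

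Among the private chains, Il7r on chromosome 15 at 9506159 to 9529941 was listed at 23.51, 26.98 and 26.98 FPKM with vehicle and at 20.26, 20.42 and 16.47 with LPC. All LPC libraries lay below all vehicle libraries, and LPC replicate 3 was the lowest. It fell by 26.2% in mean FPKM (log2 change -0.42, SE 0.10, 95% interval -0.65 to -0.20, limma adjusted p = 0.018). The call was lost without vehicle replicate 2 (-0.39, adjusted p = 0.0704), without vehicle replicate 3 (-0.39, 0.0534) and with no filter on low values (-0.42, 0.0759); without LPC replicate 3 it was -0.33 (0.0337). Crlf2, which pairs with the Il7r product in the receptor for the cytokine TSLP and not with the common gamma chain, had a log2 change of 0.12 from 63.8 ± 4.77 to 69.8 ± 7.93 FPKM that did not pass (limma adjusted p = 0.427).

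**Figure D3:**
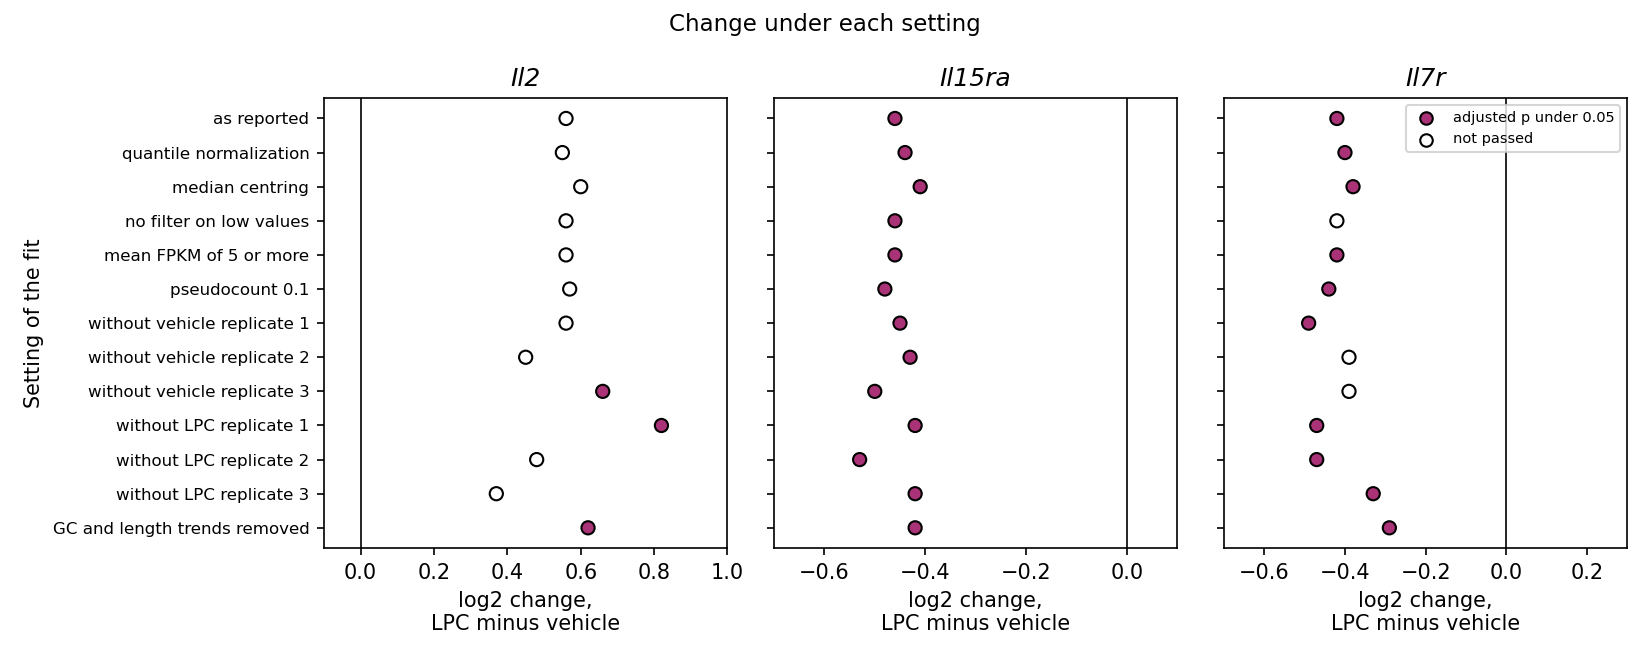
Log2 change (LPC minus vehicle) of Il2, Il15ra and Il7r as reported and under 12 other settings of the fit; filled points passed at an adjusted p under 0.05. Il15ra passes throughout, Il7r fails in 3 of the settings, and Il2 ranges from 0.37 to 0.82.

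Il4ra and Il21r are neighbours on chromosome 7, at 125552271 to 125579474 and 125603252 to 125634397, with 23.8 kb between them. Il4ra, whose product also serves the receptor for IL-13, was listed at 83.14, 73.36 and 79.39 FPKM with vehicle and at 103.76, 85.90 and 86.61 with LPC. Every LPC library was above every vehicle library, yet the log2 change of 0.22 (95% interval 0.01 to 0.43) did not pass (limma adjusted p = 0.146). Il21r was listed at 243.80, 258.83 and 231.49 FPKM with vehicle and at 227.82, 224.80 and 188.57 with LPC. Here every LPC library was below every vehicle library, and the log2 change of -0.20 (interval -0.41 to 0.02) did not pass either (adjusted p = 0.2). The ratio of Il4ra to Il21r in a library, also chosen after the values were seen, was 0.34, 0.28 and 0.34 with vehicle and 0.46, 0.38 and 0.46 with LPC. It did not overlap between groups (log2 difference 0.42, exact two-sided permutation p = 0.1, the smallest possible). Since Il4ra was higher and Il21r lower in every LPC library, the ratio could not overlap. Its p-value was thus fixed in advance and adds no support. Nsmce1 and Gtf3c1, the genes on the outer sides, had log2 changes of 0.23 (adjusted p = 0.241) and 0.06 (0.772).

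Il9r, on chromosome 11 at 32187544 to 32205283, was listed at 0.72, 0.66 and 0.67 FPKM with vehicle and at 0.50, 0.38 and 0.20 with LPC. The LPC libraries were all lower, and every value was under 1 FPKM. With no filter on low values its log2 change was -0.31 and did not pass (limma adjusted p = 0.0838).

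The RNA level of the shared chain was set beside that of the chains that can pair with it. In each library, Il2rg was divided by the summed level of Il2rb, Il21r, Il4ra, Il7r and Il9r. The ratio was 0.60, 0.64 and 0.58 with vehicle and 0.62, 0.71 and 0.66 with LPC. Partner chain RNA together thus exceeded that of Il2rg in all 6 libraries, which does not give the amounts of chain protein. The ranges overlapped (log2 difference 0.13, exact two-sided permutation p = 0.2). Il2rb held 45.3 ± 0.422% of the partner sum with vehicle and 45.4 ± 1.30% with LPC. Il21r held 38.3 ± 0.949% and 35.9 ± 1.72%, and Il4ra 12.3 ± 1.01% and 15.5 ± 0.928% (n = 3 each). Il7r held 4.05 ± 0.383% and 3.20 ± 0.217%. The shares of Il4ra, Il7r and Il9r did not overlap between the groups, and those of Il2rb and Il21r did. Over the 5 ratios compared, the Benjamini-Hochberg adjusted permutation p-values were 0.25 to 0.5. The lowest belong to the ratios chosen after the values were seen.

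**Figure D4:**
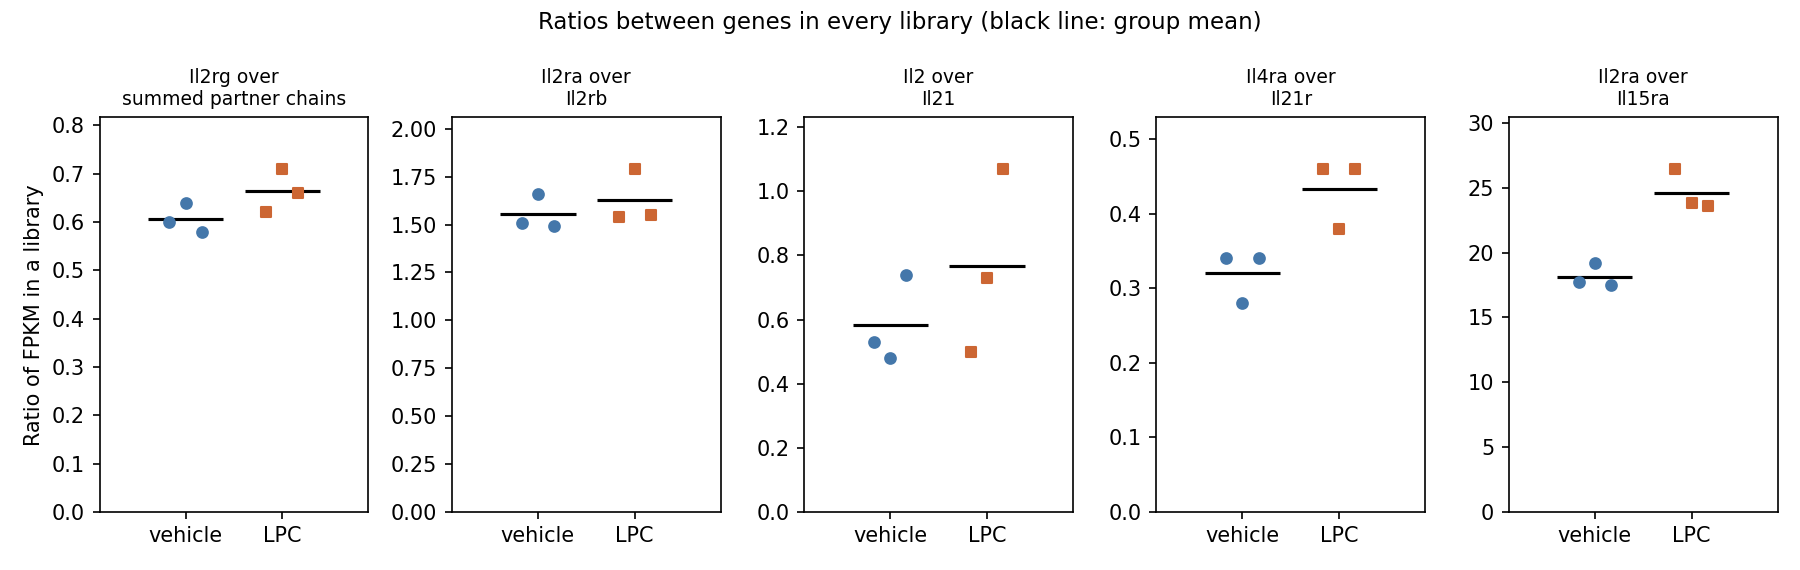
Ratio of FPKM between genes within each of 3 vehicle libraries (circles) and 3 LPC libraries (squares), with group means as black lines and axes starting at 0. The ratios of Il4ra to Il21r and of Il2ra to Il15ra do not overlap between groups, and the other 3 do. Those without overlap were chosen after the values were seen.

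Of the other ligands of this receptor family, Il4 was listed at 0 to 0.36 FPKM, Il9 at 0 to 0.10 and the distantly related ligand gene Tslp at 0.05 to 0.14. Il13, whose product shares the Il4ra chain, had 3.43 ± 0.439 FPKM with vehicle and 3.56 ± 0.741 with LPC and did not pass (limma log2 change 0.03, adjusted p = 0.884). Il13ra1, which pairs with the Il4ra product in the alternative IL-4 receptor, had at most 0.26 FPKM.

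Downstream of the receptors, 1 of 20 tested signalling genes rose and 1 fell, 10% called against 13.7% of all tested genes (list median -0.14). The kinase gene Akt1 rose from 61.2 ± 3.69 to 82.3 ± 6.28 FPKM (limma log2 change 0.42, adjusted p = 0.0104), and the exchange factor gene Sos1 fell from 9.92 ± 1.19 to 7.13 ± 1.27 FPKM (-0.43, 0.0355). The kinase genes that bind the receptors did not pass: Jak1 had 46.5 ± 1.66 and 41.5 ± 5.37 FPKM and Jak3, the partner of the common gamma chain, 103 ± 5.75 and 111 ± 19.7. Stat5a, a main mediator of IL-2 signals, had a log2 change of 0.04 (adjusted p = 0.812) and its close relative Stat5b of -0.27 (0.0603). Stat5b was listed at 78.39, 76.20 and 75.64 FPKM with vehicle and 66.75, 66.67 and 57.75 with LPC, without overlap, and passed without LPC replicate 2 (-0.30, 0.0421) and after GC and length trends were removed (-0.21, 0.0293). Stat3, used by IL-21, and Stat6, used by IL-4, had log2 changes of -0.15 (0.298) and -0.21 (0.136). When vehicle replicate 1 or 2 was left out neither Akt1 (0.054 and 0.0593) nor Sos1 (0.124 and 0.134) passed. Sos1 was also lost when LPC replicate 1 (0.111) or 3 (0.0815) was left out and with no filter on low values (0.14). Signalling genes lower numbered 3 without LPC replicate 2.

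Of 20 genes that restrain these signals 3 fell and none rose (limma, with 1 positive change at an unadjusted p under 0.05). That was 15.0% called beside 13.7% of all tested genes (7.91% lower), with a list median of -0.15. Socs3, an inhibitor of cytokine receptors induced by STAT3, fell from 104.61, 102.26 and 105.61 FPKM to 85.11, 71.74 and 69.16 (log2 change -0.47, adjusted p = 0.00756). It passed in each of the 13 alternatives. Inpp5d, which encodes a lipid phosphatase, fell as well (-0.39, adjusted p = 0.0462), but when 1 library was left out it passed only without LPC replicate 1 or 2, and it was lost with median centring (0.0724) and with no filter (0.154). Falls in this list numbered 1 without LPC replicate 3 or any one of the vehicle replicates and 6 without LPC replicate 2. Cish, a direct target of STAT5, had a log2 change of -0.12 from 139 ± 5.09 to 128 ± 10.6 FPKM that did not pass (0.381). Socs1, which blocks JAK kinases, had a log2 change of 0.32 from 99.4 ± 7.93 to 125 ± 17.5 FPKM that did not pass (0.0657); it passed without LPC replicate 2 (0.43, 0.0183) and after GC and length trends were removed (0.31, 0.0406).

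Of 27 tested IL-2 and STAT5 target genes 2 rose and 3 fell, 18.5% called beside 13.7% of all tested genes (list median -0.08). Prdm1, which encodes the repressor Blimp-1, rose from 1.14 ± 0.165 to 2.48 ± 0.255 FPKM (limma log2 change 0.70, adjusted p = 0.00158). Tfrc, the transferrin receptor gene, rose by a log2 change of 0.43 (0.0117). Without vehicle replicate 1 it did not pass (0.0792), which left 1 rise, nor did it with no filter on low values (0.0544). Socs3, which stands in this list too, the kinase gene Pim2 (-0.40, 0.0157) and the cytokine gene Lta fell, Lta from 481 ± 14.6 to 351 ± 14.6 FPKM (-0.45, 0.00753).

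Of 29 tested transcription factor genes known to act on Il2 or Il21, 2 rose and 6 fell, 27.6% called, with a list median of -0.20. Of all tested genes 13.7% were called, 7.91% lower and 5.82% higher, and no set test was run. Egr3 fell from 32.5 ± 1.00 to 18.4 ± 2.63 FPKM (limma log2 change -0.80, adjusted p = 0.000675), and the AP-1 genes Fosl2 (-0.59, 0.00742) and Jun (-0.48, 0.0118) fell. The other 3 falls were Fos (-0.43, 0.0149), Fosl1 (-0.40, 0.0388) and Fosb (-0.35, 0.0344), named after their values were seen. Not all AP-1 genes of the list moved that way: Junb (0.02, 0.935), Jund (0.19, 0.212) and Batf (0.23, 0.146) had positive changes that did not pass. Batf3, an AP-1 family member as well, was the other rise (0.45, 0.0347). Fos and Jun are known as activators of cytokine genes, and Prdm1, which rose, as a repressor of Il2. The list holds both activators and repressors, and the part of any of them in the Il2 level was not tested. Leaving out vehicle replicate 1 left 2 falls in this list, and leaving out vehicle replicate 2 or LPC replicate 1 left 3. Rises numbered 1 in 4 of the 6 fits with a library left out (vehicle replicates 1 and 2, LPC replicates 1 and 3), and Jun did not pass without vehicle replicate 1 (0.0637). With no filter on low values Fosl2 (0.0655) and Jun (0.0691) did not pass. Of 10 factor genes known to act on Il7r 2 fell and none rose (1 positive change at an unadjusted p under 0.05). That was 20.0% called beside 13.7% of all tested genes (7.91% lower), with a list median of -0.24. The falls were Runx1 (-0.50, 0.0113, and 0.0536 without vehicle replicate 2) and Tcf7 (-0.45, 0.00986). With no filter on low values neither Runx1 (0.0695) nor Tcf7 (0.0507) passed. Falls numbered 4 without LPC replicate 2.

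Of 22 tested receptor genes of other cytokine families 5 fell and none rose (limma, with 0 positive changes at an unadjusted p under 0.05). That was 22.7% called beside 13.7% of all tested genes (7.91% lower), with a list median of -0.11. The largest falls were Il6ra (-0.66, adjusted p = 0.00673) and Il6st (-0.50, 0.0302), which form the IL-6 receptor, the type I interferon receptor chain gene Ifnar2 (-0.46, 0.00502) and Il10rb (-0.39, 0.0118), a chain of the IL-10 receptor. The fifth was the tumour necrosis factor receptor gene Tnfrsf1b (-0.37, 0.0318). The falls numbered 2 without vehicle replicate 1 or 2 and 3 without LPC replicate 3. Il6st lost its call without vehicle replicate 1 (0.0533) or 2 (0.106), without LPC replicate 1 (0.071) or 3 (0.0633) and with no filter on low values (0.143). Il10rb lost its call when vehicle replicate 1 (0.0552) or 2 (0.0564) was left out, and Il6ra with no filter (0.0687). No test compared the gamma chain receptors with these, and the 2 falls among 7 tested gamma chain receptor genes are given beside this count as a description.

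**Figure D5:**
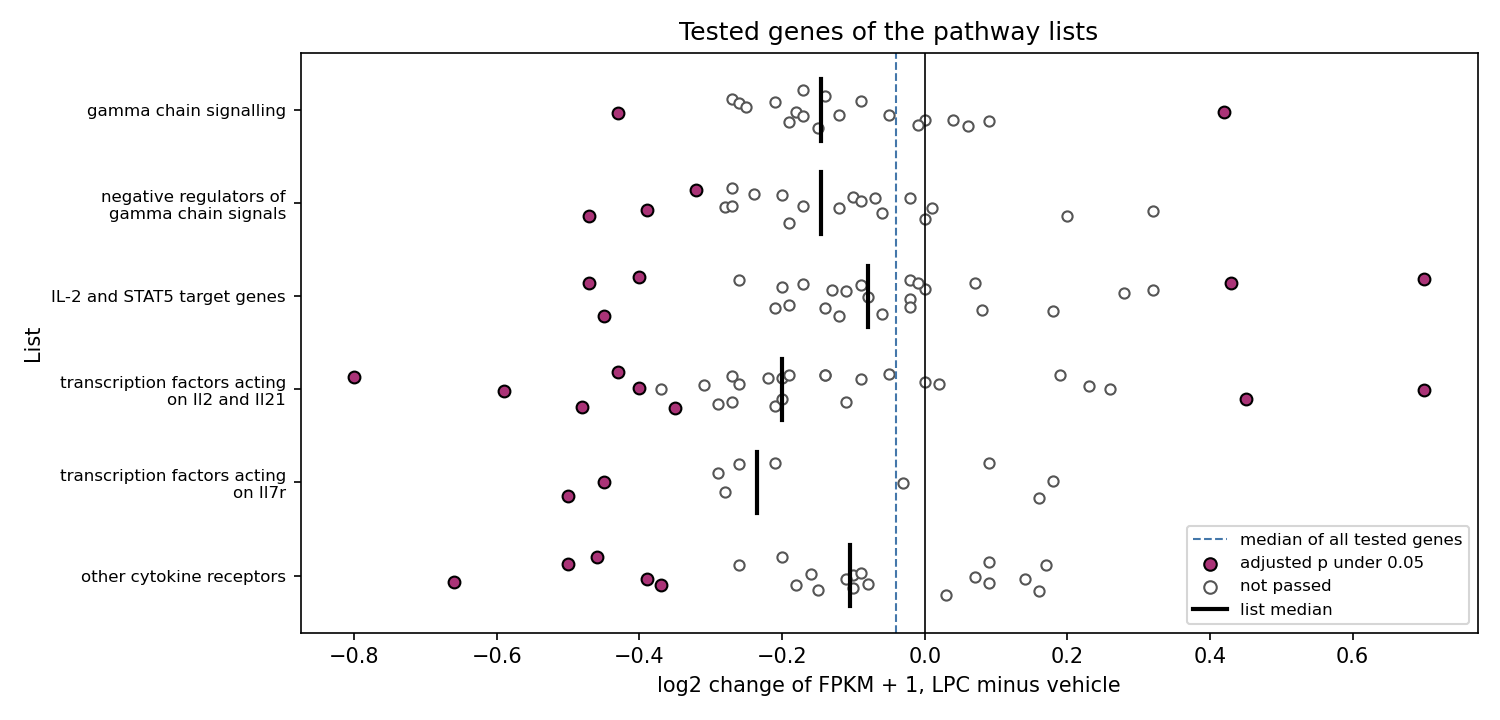
Log2 change of FPKM + 1 (LPC minus vehicle) of each tested gene in 6 lists; filled points passed at an adjusted p under 0.05, black bars are list medians and the dashed line is the median of all tested genes (-0.04). List medians run from -0.24 to -0.08, and the points farthest to the right are Prdm1 (0.70), which stands in 2 lists.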

How the data were processed

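RNA for 6 libraries was sequenced on a BGISEQ-500, aligned to GRCm38 with Bowtie2 and quantified by RSEM, per the labels' protocols; no version or setting is given in the sources used here. The authors deposited FPKM values with 2 decimals, 1 file per library. Since FPKM is a share of the library, genes can shift when a few abundant ones change. Depth is only estimated, so no counting error is given. The gene identifier was used to restore 24 symbols that had become dates, and 99.3% of identifiers matched RefSeq GRCm38.p6, the source of coordinates and upstream sequences.

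A gene was tested (10138 in all) if at least 3 libraries reached 1 FPKM. Groups were compared on log2(FPKM + 1) by limma 3.58.1 (R 4.3.3, limma-trend, no covariates), with Benjamini-Hochberg adjustment over all tested genes and calls at an adjusted p under 0.05. Of all tested genes 590 were higher and 802 lower with LPC (42.4% of calls higher; 53.1% after median centring). Ratios were compared by exact permutation. FPKM values are not counts, so count models were left aside.

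The members and lists were chosen with earlier results of these data known, and 2 of the 5 ratios after the values were seen. Named by rule were all members, the main JAK, STAT and SOCS genes, up to 4 called genes of largest change in each list, and neighbours of member pairs. Alternatives were quantile normalization, median centring, no filter, a pseudocount of 0.1, a filter at a mean FPKM of 5, a replicate block, GC and length trends removed by splines, and each library left out. Il7 and Il13ra2 were not analysed here. The values of 1 called gene in the list of restraining genes are not reported here.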

Additional observations from a re-analysis of the deposited data

How the results depend on the processing

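The direction of the 2 member falls and of Il2, Il21, Il4ra, Il2rb and Il21r held in each of the 13 alternatives; Il15ra passed in all 13, Il7r in 10 and Il2 in 4. Members near 0 changed sign: Il2rg was -0.02 with quantile normalization and -0.03 to 0.09 with 1 library left out, and Il2ra was 0.01 with median centring, 0.07 after GC and length trends were removed and -0.11 to 0.03 with 1 library left out. With 1 library left out Jak3 ran from -0.05 to 0.19 and Stat5a from -0.05 to 0.15, and Stat5a was -0.01 with quantile normalization. The ratio differences then ran from -0.01 to 0.11 for Il2ra to Il2rb, 0.08 to 0.18 for Il2rg to its partners, 0.07 to 0.62 for Il2 to Il21, 0.33 to 0.51 for Il4ra to Il21r and 0.39 to 0.48 for Il2ra to Il15ra.

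With no filter on low values more genes entered both the fit and the adjustment, and the cause of the fewer calls was not tested. There 236 genes were higher and 228 lower, and 1 member was lower (Il15ra). Signalling genes lower numbered 0, restraining genes lower 1 and target genes higher 1. Il2 and Il21 factors numbered 1 higher and 1 lower, Il7r factors lower 0, and other receptors 1 higher and 2 lower. With a filter at a mean FPKM of 5 or more Prdm1 was not tested, which left 1 target gene and 1 Il2 and Il21 factor higher. Median centring also left 1 Il2 and Il21 factor higher, and Prdm1 passed there (limma adjusted p = 0.0034). After GC and length trends were removed 933 genes were higher, 1 member was higher (Il2), 2 signalling genes were lower, and 2 restraining and 4 target genes were higher.

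Leaving out 1 library gave 225 to 809 genes higher and 288 to 1217 lower, 0 to 1 members higher and 1 to 2 lower. It gave 0 to 1 signalling genes higher and 0 to 3 lower, 0 to 1 restraining genes higher and 1 to 6 lower, 1 to 3 target genes higher, 1 to 2 Il2 and Il21 factors higher and 2 to 9 lower, 1 to 4 Il7r factors lower and 2 to 6 other receptors lower. Target genes lower numbered 2 to 3. These fits hold fewer libraries; the cause was otherwise not tested.

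The labels do not say that replicate numbers pair the libraries, and the data settle it only in part. Deviations of same-numbered libraries correlated at 0.02, 0.56 and 0.41, so the first pair missed the level of 0.1 required here. Of the 6 libraries 5 correlated best with their own number, and vehicle replicate 1 had 0.06 with LPC replicate 3. That count overstates the match. LPC replicate 1 is in it at 0.02 against 0 and -0.01, and replicates 2 and 3 each enter from both sides of the same correlation. Replicates 2 and 3 correlated at -0.45 and -0.5 across numbers. Deviations from a group mean cancel within the group, so these negative values largely follow from the positive ones and are not separate evidence. With the replicate number as a block, 1180 genes were higher and 1661 lower. Members higher numbered 3 (Il2, Il21 and Il4ra, limma adjusted p = 0.00351, 0.0397 and 0.0377). Signalling genes lower numbered 4, restraining genes 1 higher and 7 lower, and target genes higher 4. Il2 and Il21 factors lower numbered 13 and Il7r factors lower 5. Stat5b (limma adjusted p = 0.0153) and Socs1 (0.00543) also passed with this block, which rests on a pairing that is not settled.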
